A study of Mus musculus with 15 samples.

Results

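The genes described here encode the enzymes that oxidise fatty acids and branched chain amino acids, together with the carnitine shuttle, the electron transfer flavoproteins and the nuclear receptor Ppara. The list holds 42 genes. A gene was measured where a probe set of the mouse gene array carried its symbol and no other, and where there were several the brightest over all 15 arrays was used. This gave 41 of the 42 genes, among 19938 genes with a probe set of their own. Cpt1b, the carnitine palmitoyltransferase of muscle, shares its only probe set with the predicted gene Gm44502 and has no value here. Hadhb and Hibadh each had 2 probe sets of their own.

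The arrays fall into 4 groups of mouse kidney samples, of unspecified strain. The first group is the metanephric mesenchyme (MM), from which nephrons form in the embryo, with 4 single cells numbered 14, 15, 16 and 19 in the labels; they were taken at embryonic day 11.5 from mice with the reporter transgene Tg(Crym-EGFP)GF82Gsat, with sex unknown. A second group is 5 single cells of the juxtaglomerular (JG) complex, the renin-producing cells beside the glomerulus, numbered 4 to 8; they came from adult male mice with the Ren1c-YFP reporter, although the dissection note for the same cells names Ren1d GFP. Cells were picked by fluorescence with glass needles, the JG cells after collagenase A and trypsin, and were amplified with the SCAMP single cell protocol, for which 32 rounds are recorded. The label of the standard-labelled cortex instead describes the JG cells as separated by flow sorting (FACS) on Ren1-YFP. Cortex of adult male Ren1c-YFP mice, a lysate of mixed cells from a limited area, was used in both other groups. In the diluted cortex (libraries A, B and C) the lysate was diluted and amplified as the cells were, and in the standard-labelled cortex (A, B and C) it was labelled with the NuGEN WT-Ovation Pico kit and 1 round. The labels name no treatment or deletion in any group. No label names the animal behind a cell, and a group of cells is therefore treated as 1 sample and described without a test. How much RNA the diluted libraries held is not given in the sources used here.

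Long chain fatty acids enter the mitochondrion as carnitine esters and are then shortened in a cycle of dehydrogenation, hydration, a further dehydrogenation and thiolysis. The acyl-CoA dehydrogenases pass their electrons to the electron transfer flavoprotein (Etfa and Etfb) and from there through Etfdh to the respiratory chain. Leucine, isoleucine and valine are broken down by related enzymes after transamination and oxidative decarboxylation. The proximal tubule, the main cell type of the kidney cortex, is known to draw most of its energy from fatty acid oxidation, and Ppara is known to activate many of these genes there.

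The arrays gave log2 probe set signals. On each array a gene was called above background when its signal exceeded the 99th percentile of the 1210 olfactory and vomeronasal receptor probe sets on that array, a class not thought to be expressed in kidney. This level lay between 7.13 and 7.56 on MM arrays, between 7.55 and 7.92 on JG arrays, and between 6.18 and 6.51 in the 6 cortex libraries. The share of all named genes above it ran from 10.9 to 21.1% over MM cells and from 6.87 to 14.2% over JG cells. For diluted cortex the range was 48.3 to 50.5%, and for standard-labelled cortex 43.7 to 48.2%. The labelled cell types were checked against markers. Of 8 measured markers of renin cells, 2 to 5 were above background in each JG cell and 0 to 2 in each MM cell. Mgp (13.17 to 13.46) and Crip1 (11.96 to 13.01) were high in all 5 JG cells, Acta2 was high in cells 7 and 8 (12.20 and 11.32), and Cnn1 and Myh11 were below background in all 5. Ren1 and Akr1b7 had no probe set of their own. Of 10 cap mesenchyme markers, 3 to 5 were above background in each MM cell, but also 1 to 6 in each JG cell, so this list did not separate the 2 kinds of cell. JG cell 8 had 6, more than any MM cell. Hoxd11 was above background in all 4 MM cells (7.88 to 9.15), but also in JG cells 6 (7.95) and 8 (8.11). Cited1 of the same list read 7.23 to 7.70 in MM and 7.48 to 8.14 in JG cells. Six2 (10.13) and Crym (8.61) were highest in MM cell 16. Six2 read 7.53, 7.18 and 6.69 and Crym 7.27, 7.50 and 6.90 in cells 14, 15 and 19, close to or below background.

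All 41 genes were above background in each of the 6 cortex libraries, and few were in the single cells. MM cells 14 and 19 had 20 and 17 of the 41 genes above background, and MM cells 15 and 16 had 7 each. The JG cells had 4, 2, 4, 8 and 8 in cells 4 to 8. The cells with the most oxidation genes also had the most genes of any kind above background in their group (20.7 and 21.1% in MM cells 14 and 19, 10.7 and 14.2% in JG cells 7 and 8); the part of this in the counts was not tested. Genes more than 2 log2 units above the level numbered 11, 5, 0 and 9 in MM cells 14, 15, 16 and 19 and 0, 0, 1, 3 and 3 in JG cells 4 to 8. Many of the single cell calls thus lay close to the level.

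**Figure D1:**
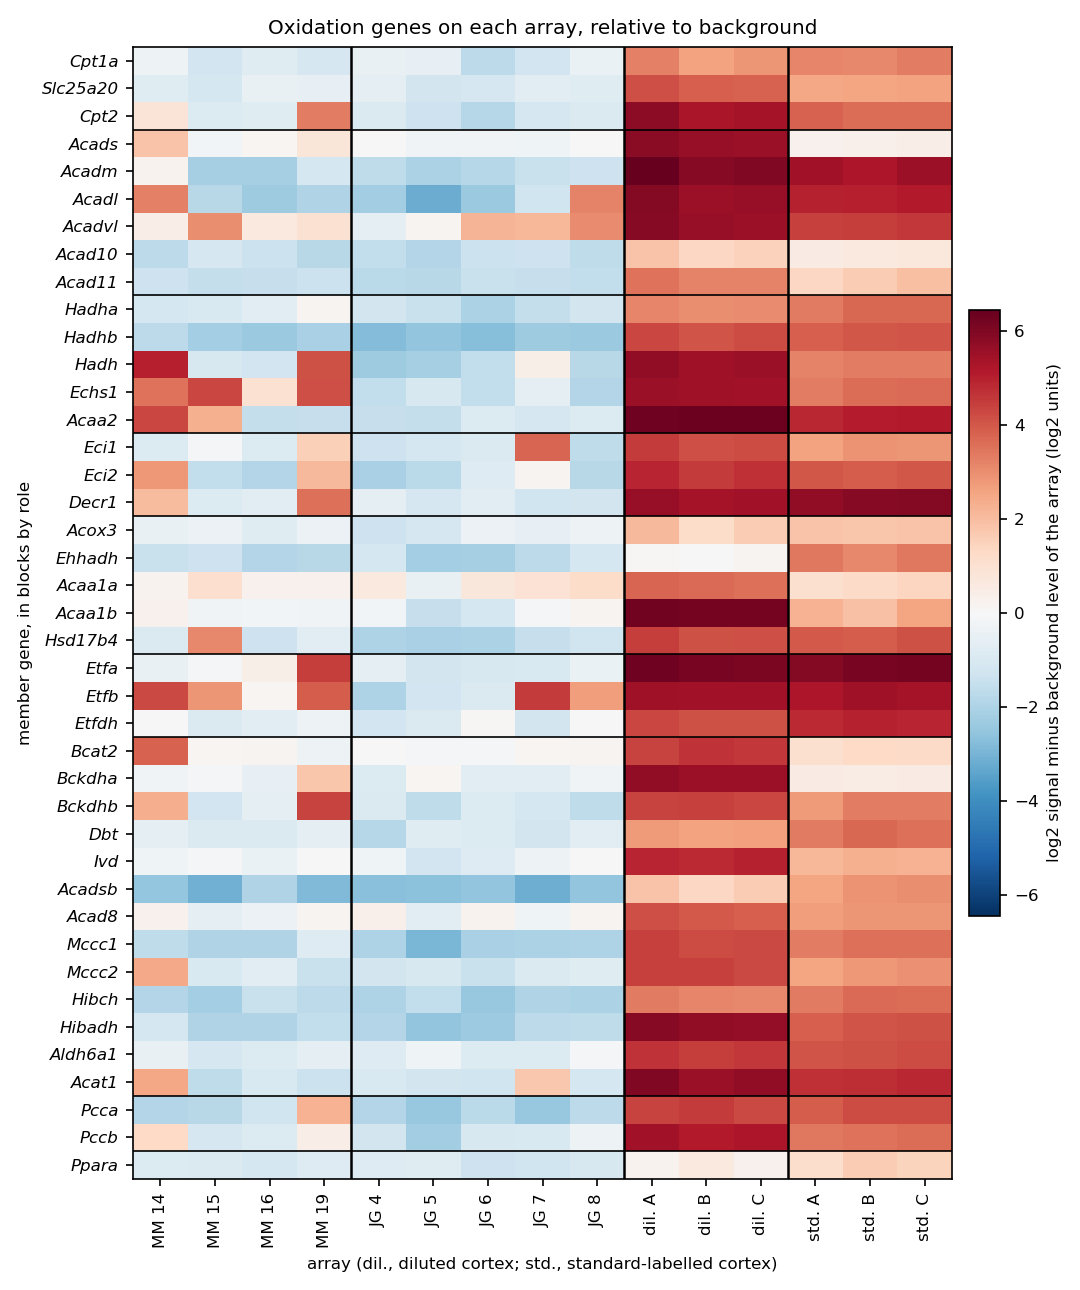
Each cell of the map is the log2 signal of a gene minus the background level of that array, with genes in blocks by role (rows) and the 15 arrays in 4 groups (columns: MM and JG single cells, diluted and standard-labelled cortex); red is above and blue below background. The 6 cortex columns are above background for all 41 genes, with the palest values among them those of Ehhadh and Ppara in diluted cortex and of Acads and Bckdha in standard-labelled cortex, and the single cells have between 2 and 20 genes above background.

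Of the 41 genes, 14 were above background in both kinds of cell, 12 in at least 1 MM cell and no JG cell, 1 (Ivd, the dehydrogenase of leucine breakdown) in a JG cell and no MM cell, and 14 in no cell. The last 14 are Cpt1a, Slc25a20, Acad10, Acad11, Hadhb, Acox3, Ehhadh, Dbt, Acadsb, Mccc1, Hibch, Hibadh, Aldh6a1 and Ppara. Ivd passed the level of JG cell 8 by 0.04 log2 units. The same split was not counted over all named genes. Their share above background also ran higher in MM cells (10.9 to 21.1%) than in JG cells (6.87 to 14.2%). The split is therefore not read as a difference between the kinds of cell. Within a group, 4 genes were above background in all 4 MM cells (Acadvl, Echs1, Acaa1a and Etfb). No gene was above background in all 5 JG cells, and Acadvl and Acaa1a were in 4 of them.

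**Figure D2:**
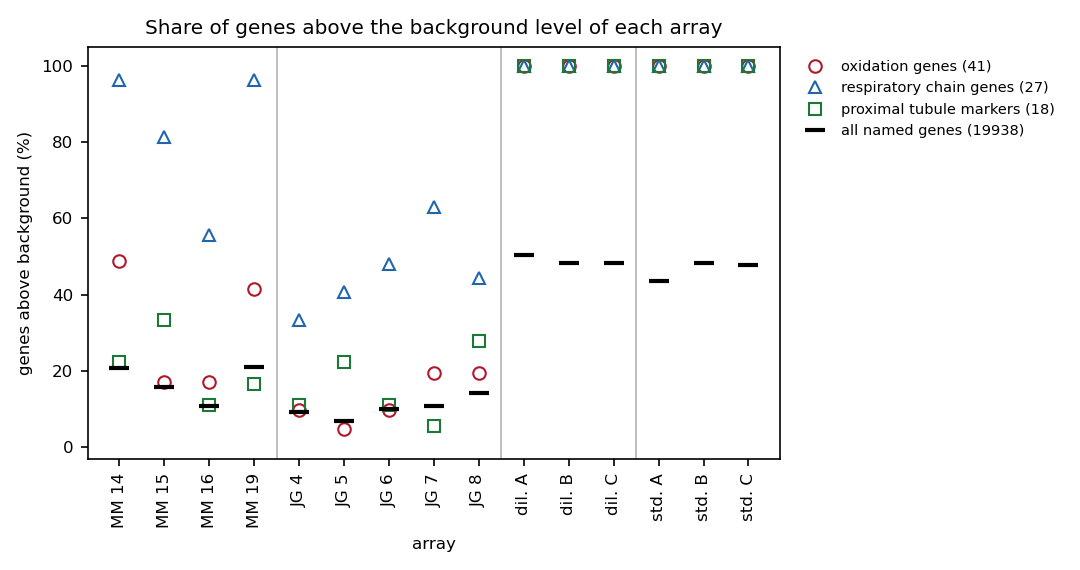
The share of genes above the background level of each array (vertical axis, percent) is plotted for the 41 oxidation genes, 27 respiratory chain genes, 18 proximal tubule markers and all 19938 named genes on each of the 15 arrays. The 3 gene lists are at 100% in every cortex library, and in the single cells the respiratory chain share lies above that of the oxidation genes on every array.

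Other gene lists give the setting. Of 27 measured respiratory chain genes, 15 to 26 passed background in the MM cells, whereas JG cells had 9 to 17. Of 19 genes of the tricarboxylic acid cycle the ranges were 5 to 15 and 2 to 7, and of 12 widely expressed genes 9 to 11 and 7 to 8. Proximal tubule markers were present at 18 of 18 in every cortex library, at 2 to 6 per MM cell and at 1 to 5 per JG cell. The highest counts were 6 of 18 in MM cell 15 and 5 of 18 in JG cell 8, where Acy3 read 10.95, Ttc36 8.81 and Slc22a8 8.17. JG cell 5, with the fewest oxidation genes, had 4 of 18, among them Gpx3 (12.37) and Miox (12.63), and MM cell 19 carried Gpx3 (11.57). MM cells 14 and 19, with the most oxidation genes, also carried Foxd1, a gene of kidney stroma (9.03 and 11.33), and cell 14 the endothelial gene Emcn (11.77). Other markers of these lists went differently. Of 5 stroma markers 0 to 2 passed background per MM cell, and of 6 endothelial markers 1 to 2. Pecam1, Cdh5, Kdr and Tie1 of endothelium were below it in cell 14. Meis1 of stroma was highest in MM cell 15 (11.0), and Egfl7 of endothelium read 8.8, 8.83 and 9.29 in MM cells 15, 16 and 19. The part of such RNA or cell types in the oxidation genes of these cells was not tested. In a bulk lysate, fewer cells of a type and less RNA per cell cannot be told apart.

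Against diluted cortex, which shares their amplification, the JG cells were lower in 40 of the 41 oxidation genes. The median difference was -3.95 log2 units, with a range from -6.29 to 0.04, while the median over all named genes was 0.56 and the background receptors themselves were 1.05 higher in JG cells. A gene is called apart where the group means differ by at least 1 log2 unit and no sample of one group reaches the other. By this rule 36 of 41 genes were apart and lower in JG cells, beside 24.7% of all named genes, and 0 were apart and higher, beside 32.5%. Among the 9159 named genes above background in all 3 diluted libraries, as all 41 oxidation genes are, 53.1% were apart and lower. The 5 genes not apart were Eci1, Acox3, Ehhadh, Etfb and Ppara. Without JG cells 4 and 5, left out together after the data were seen, the count was again 36 and the median -4.00.

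The MM cells were lower than diluted cortex in all 41 genes, with a median difference of -3.46 and a range from -6.35 to -0.25, beside a median of 0.42 over all named genes and a receptor shift of 0.84. Here 34 of 41 genes were apart and lower, beside 19.5% of all named genes and 41.5% of those above background in all diluted libraries, and 0 were apart and higher, beside 16.5%. The 7 genes not apart were Hadh, Echs1, Ehhadh, Hsd17b4, Bcat2, Bckdhb and Ppara. Both comparisons share the diluted libraries. For genes below background in every cell the difference is only a bound, set by the level of the cells' arrays; such bounds ran from 1.06-fold to 28.3-fold for 24 genes in JG cells and from 1.41-fold to 26.0-fold for 13 genes in MM cells.

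**Figure D3:**
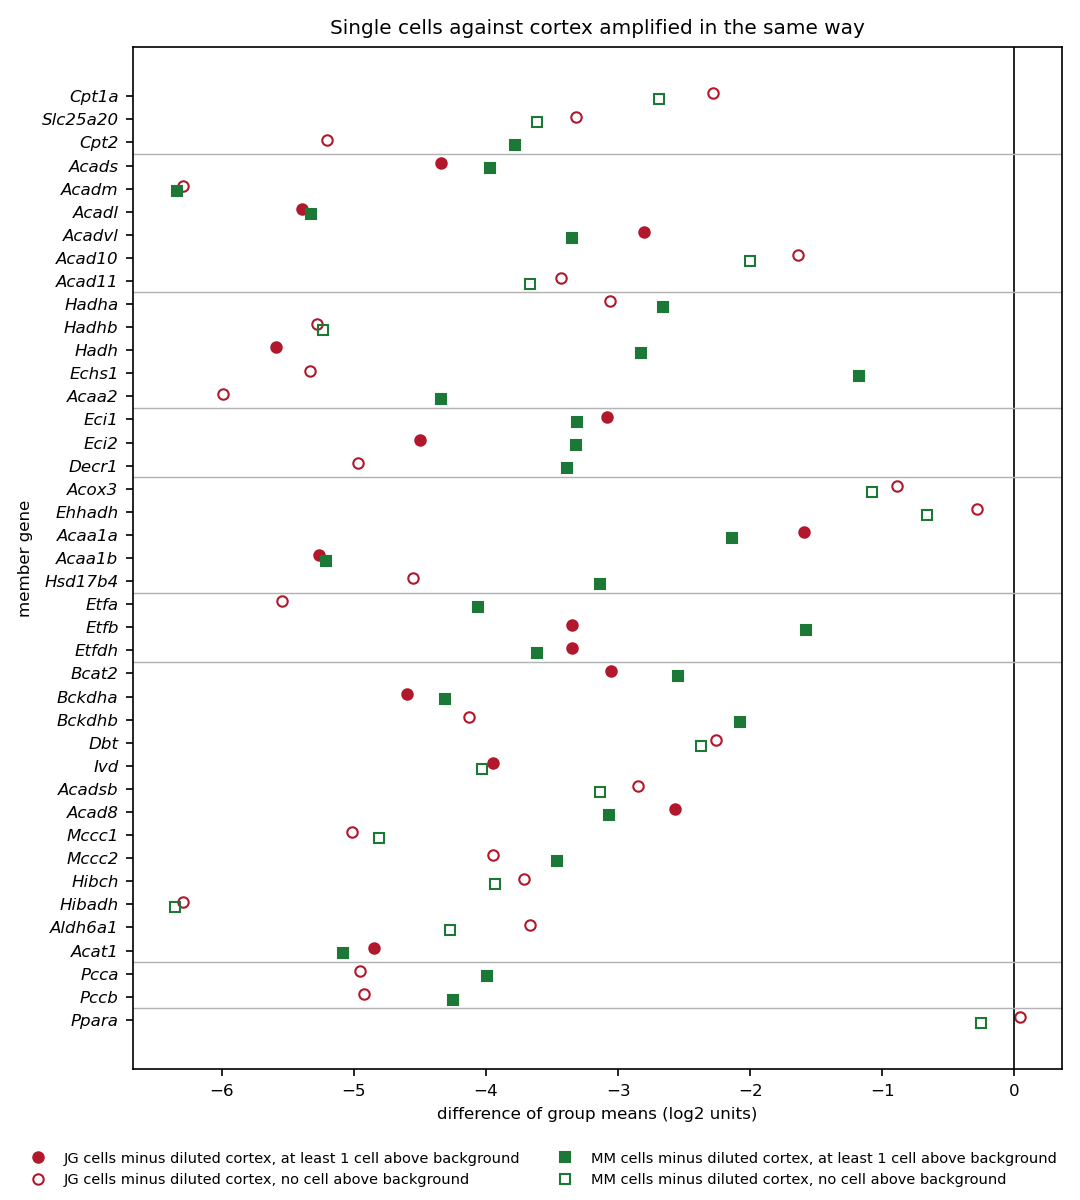
The difference of group means from diluted cortex (horizontal axis, log2 units) is shown for each of the 41 genes by role, for the 5 JG cells (circles) and the 4 MM cells (squares); open symbols mark genes with no cell above background. Nearly all points lie left of 0, from -6.35 to 0.04, with Ppara and Ehhadh nearest to 0 and Echs1 and Etfb the genes where MM cells lie closest to cortex among those above background.

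Between the cell types 21 oxidation genes had the higher mean in MM cells and 20 the lower. The median difference was 0.05, beside -0.19 over all named genes and a receptor shift of -0.21. Differences ranged from -0.60 to 4.15, and with each array centred on the receptors the median was 0.25. For the 14 genes below background in every cell the sign carries no information on expression, so the split is not read as an even one. Only Echs1 was apart, higher in MM cells, which is 1 of 41 genes beside 1.02% of all named genes. None was apart and lower, beside 0.306%. Leaving out MM cell 14, MM cell 15, JG cell 7 or JG cell 8 added a further gene, in that order Etfa, Bckdhb, Hadh and Hsd17b4, so the count of 2 rested on a single cell each time.

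Of the matrix enzymes of the shortening cycle, Echs1, the short chain enoyl-CoA hydratase, read 10.63, 11.72, 8.56 and 11.27 in MM cells 14, 15, 16 and 19. It read 6.14, 6.87, 6.16, 7.13 and 5.67 in JG cells 4 to 8. Every MM cell was above background and every JG cell below it, so the difference of 4.15 log2 units is given as at least 7.06-fold. In diluted cortex Echs1 read 11.73, 11.74 and 11.70, and MM cell 15 lay within 0.01 of their mean, so that MM cells and diluted cortex overlapped.

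Hadh, the short chain hydroxyacyl-CoA dehydrogenase, was high in some MM cells and below background in others. It read 12.15 and 11.22 in MM cells 14 and 19 but 6.38 and 6.31 in cells 15 and 16, with an SD of 3.11, the largest of the 41 genes in MM cells. Among JG cells only cell 7 (8.06) was above background. Acaa2, the thiolase of the cycle, likewise divided the MM cells, at 11.43 and 9.69 in cells 14 and 15 and 6.04 and 5.67 in cells 16 and 19. It was below background in all 5 JG cells, where diluted cortex was at least 28.3-fold higher.

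Hadha and Hadhb encode the 2 subunits of the trifunctional protein, which carries out the later steps on long chains. Hadhb read 5.45, 5.21, 5.19 and 5.06 in MM cells and between 4.94 and 5.41 in JG cells, far below background in all 9. In diluted cortex it read 10.51, 10.35 and 10.52, at least 6.64-fold above the JG cells and 8.88-fold above the MM cells. Its other probe set gave group means of 5.05 in MM, 5.01 in JG, 10.45 in diluted and 10.26 in standard-labelled cortex, the same picture. Hadha was above background in MM cell 19 alone (7.30, against a level of 7.13).

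The start sites of Hadha and Hadhb face away from each other on chromosome 5, at positions 30154980 and 30155253 of GRCm38.p6, with 272 bases between them. The RefSeq sequence upstream of the Hadhb start is printed because it lies between the start sites of both subunits. The sequences upstream of Acadm and Echs1 follow, since they are core enzymes of the cycle with a match to the nuclear receptor motif AGGTCA. Each sequence is the 250 bases before the start, 5′ to 3′ on the strand of the gene, and capitals mark this motif in either orientation. The positions are chr5:30155003-30155252 (plus strand) for Hadhb, chr3:153944644-153944893 (minus strand) for Acadm and chr7:140116422-140116671 (minus strand) for Echs1.
Hadhb: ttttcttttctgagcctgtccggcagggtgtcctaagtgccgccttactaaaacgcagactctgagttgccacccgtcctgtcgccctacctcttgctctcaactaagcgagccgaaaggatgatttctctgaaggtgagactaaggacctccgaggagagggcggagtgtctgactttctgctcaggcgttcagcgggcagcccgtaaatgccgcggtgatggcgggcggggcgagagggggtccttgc
Acadm: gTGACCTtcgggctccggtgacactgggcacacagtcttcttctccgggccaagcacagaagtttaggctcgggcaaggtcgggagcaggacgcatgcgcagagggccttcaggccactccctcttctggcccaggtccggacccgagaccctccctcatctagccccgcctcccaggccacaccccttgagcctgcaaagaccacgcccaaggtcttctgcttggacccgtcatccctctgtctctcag
Echs1: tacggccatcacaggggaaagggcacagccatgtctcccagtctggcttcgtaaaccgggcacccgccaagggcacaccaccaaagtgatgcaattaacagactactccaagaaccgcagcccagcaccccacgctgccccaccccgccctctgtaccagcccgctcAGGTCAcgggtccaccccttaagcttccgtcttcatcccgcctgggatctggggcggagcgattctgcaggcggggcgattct

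Promoters of 36 of the 42 genes were found in the RefSeq table, each with 250 bases before and 50 after the start. Exact matches were sought on both strands. The motif AGGTCA, to which nuclear receptors such as Ppara and the estrogen-related receptors bind, occurred in 8 of 36 promoters (22.2%; Acadm, Acadvl, Aldh6a1, Bckdhb, Cpt1a, Echs1, Hibadh and Pcca), beside 18.1% of all 27025. The direct repeat AGGTCANAGGTCA, which holds this motif 2 times, occurred in 0 of 36 and in 0.0481% of all promoters, and the element TCAAGGTCA, which holds it once, in 0 of 36 and in 0.466%. A match is a description of letters in this window.

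Of the acyl-CoA dehydrogenases, which start each round of the cycle on chains of different length, Acadvl (very long chains) was the one found in most cells. It read 7.55, 10.39, 8.17 and 8.12 in the MM cells and 7.16, 8.08, 9.91, 9.82 and 10.61 in JG cells 4 to 8. Only JG cell 4 was below background, and the groups of cells overlapped. Diluted cortex, at 12.03, 11.88 and 11.82, lay above all 9 cells, with differences of -2.80 for JG and -3.35 for MM cells.

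Acadl (long chains) was found in 1 cell of each kind, at 10.40 in MM cell 14 and 10.75 in JG cell 8, while the other 7 cells lay between 4.73 and 6.39. Acadm (medium chains) read 12.62, 12.16 and 12.27 in diluted cortex and 6.10, 5.88, 5.88, 6.24 and 6.20 in JG cells, which makes it at least 24.7-fold higher in diluted cortex. Among MM cells only cell 14 (7.38) passed the level. Acads (short chains) read 12.02, 11.89 and 11.86 in diluted cortex and from 7.42 to 7.76 in JG cells, whose background level was of the same size. Acad10 and Acad11 were below background in all 9 cells.

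**Figure D4:**
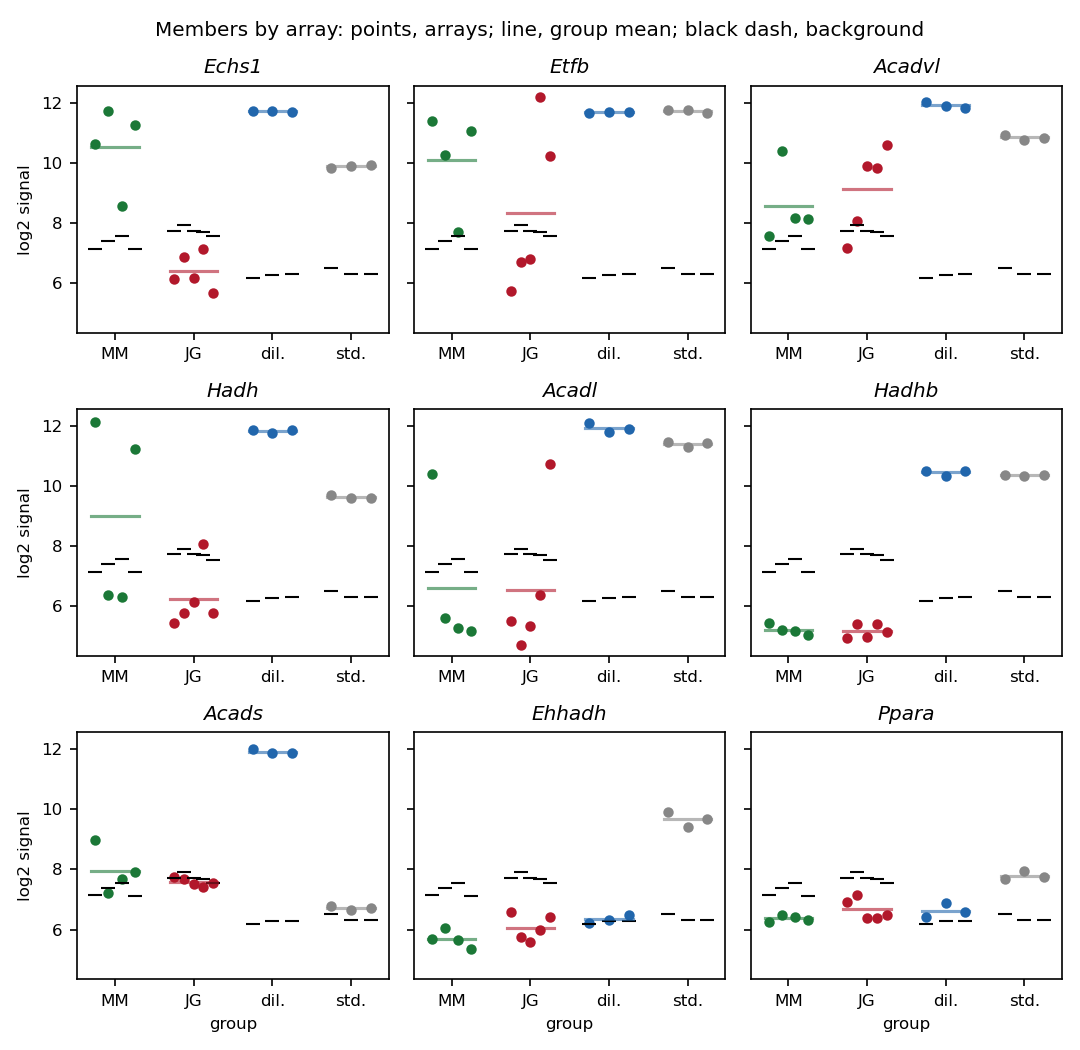
The log2 signal (vertical axis) of 9 genes is plotted for every array in the 4 groups (points), with the group mean (coloured line) and the background level of each array (black dash). Echs1 separates MM from JG cells, Hadh and Acadl are high in single cells and low in others of the same group, Hadhb is below background in all 9 cells, and Acads and Ehhadh differ between the cortex labellings in opposite directions.

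In the carnitine shuttle, Cpt1a, the transferase of the outer membrane, and Slc25a20, the carrier across the inner membrane, were below background in all 9 cells. Diluted cortex was at least 2.67-fold and 5.49-fold higher than JG cells for these genes. Cpt2, which releases the acyl-CoA in the matrix, read 7.99 and 10.43 in MM cells 14 and 19 and was below background in the others. It was below background in all JG cells, at least 15.9-fold under diluted cortex.

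The auxiliary enzymes, which bring unsaturated chains into the cycle, were found in few cells. Eci1, an isomerase, read 11.43 in JG cell 7, above the 10.67, 10.45 and 10.52 of diluted cortex, and between 5.94 and 6.79 in the other 4 JG cells. Eci2, its relative, read 9.92 and 9.23 in MM cells 14 and 19 and 7.89 in JG cell 7. Decr1, the dienoyl-CoA reductase, read 9.19 and 10.69 in the same 2 MM cells and was below background in every JG cell, where diluted cortex was at least 15.8-fold higher.

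Of the peroxisomal enzymes, the thiolase Acaa1a was above background in most cells. It passed the level by only 0.25, 0.26 and 0.27 log2 units in MM cells 14, 16 and 19. It read 7.40, 8.49, 7.82 and 7.39 in MM cells and 8.36, 7.42, 8.46, 8.64 and 8.75 in JG cells, all under the 9.95, 9.95 and 9.84 of diluted cortex. The JG difference of -1.59 turned to 0.32 under quantile normalization, and against standard-labelled cortex (7.54, 7.51 and 7.67) it was 0.75. Acaa1b, a close relative of Acaa1a, read 12.42, 12.44 and 12.45 in diluted cortex and between 6.44 and 7.73 in the 9 cells; the genes are near-identical copies, and whether a probe reads both was not tested. Hsd17b4, the D-bifunctional enzyme that serves branched chains, read 10.49 in MM cell 15, against a diluted mean of 10.50, and was below background in the other 8 cells.

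Etfb was the electron transfer gene found most often, at 11.40, 10.25, 7.70 and 11.05 in the MM cells and 12.19 and 10.23 in JG cells 7 and 8. The other 3 JG cells, at 5.73, 6.69 and 6.80, were below background. Etfa encodes its partner subunit and was found in 2 of the same 4 MM cells (7.93 in cell 16 and 11.58 in cell 19) and in no JG cell. Cells with Etfb alone were thus 2 of 4 MM and 2 of 5 JG cells, and no cell had Etfa alone. In cortex both subunits were high on all 6 arrays, from 12.39 to 12.46 for Etfa and from 11.67 to 11.74 for Etfb. Etfdh, which hands the electrons on to ubiquinone, passed the level by 0.04 log2 units in MM cell 14 and by 0.08 in JG cell 6.

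In the breakdown of branched chain amino acids, all 13 genes were apart and lower in JG cells than in diluted cortex, and 11 of 13 in MM cells, Bcat2 and Bckdhb being the others. Among named genes above background in all diluted libraries, as these 13 are, the shares were 53.1% and 41.5%. Other metabolic lists gave similar counts. Of the tricarboxylic acid cycle 18 of 19 genes were apart and lower in JG and 13 in MM cells, and of gluconeogenesis and amino acid enzymes 17 of 18 in each. Bcat2, the mitochondrial aminotransferase of the first step, read 10.94 in MM cell 14, beside 10.55, 10.96 and 10.87 in diluted cortex, and 6.78 to 7.84 in the other 8 cells. Bckdha and Bckdhb are the subunits of the decarboxylase of the branched chain ketoacid dehydrogenase. Bckdhb read 9.51 and 11.51 in MM cells 14 and 19 and was below background elsewhere, while Bckdha passed the level in MM cell 19 (8.91) and JG cell 5 (8.02). Both were above it in 1 cell alone, MM cell 19.

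The later steps were mostly dim in cells. Hibadh, the hydroxyisobutyrate dehydrogenase of valine breakdown, read 12.03, 12.01 and 11.99 in diluted cortex and between 5.40 and 6.03 in the 9 cells, at least 19.5-fold above JG and 26.0-fold above MM cells. Its second probe set was dim in every group, with means of at most 3.51, and did not carry this difference. Mccc2, a subunit of methylcrotonyl-CoA carboxylase in leucine breakdown, read 9.61 in MM cell 14, and its partner Mccc1 was below background in all 9 cells. Acat1, the acetoacetyl-CoA thiolase of isoleucine and ketone body breakdown, read 9.65 in MM cell 14 and 9.45 in JG cell 7 and at most 6.74 in the other 7 cells. Of the propionyl-CoA carboxylase subunits, Pcca was found in MM cell 19 (9.38) and Pccb in MM cells 14 (8.43) and 19 (7.55), and neither in a JG cell.

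Ppara was below background in all 9 cells, with values of 6.26 to 6.48 for MM and 6.39 to 7.16 for JG. Diluted cortex, at 6.41, 6.90 and 6.57, overlapped with the cells and barely exceeded its own background level. Ehhadh, the L-bifunctional enzyme of peroxisomes, was in the same position, at 6.23, 6.32 and 6.50 in diluted cortex. For these genes the comparison with diluted cortex could show little, whereas standard-labelled cortex read 7.67, 7.95 and 7.77 for Ppara and 9.90, 9.41 and 9.69 for Ehhadh.

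The spread followed the same division. The median SD of the 41 genes was 0.747 over MM cells and 0.377 over JG cells, against 0.332 and 0.325 over all named genes. In cortex it was 0.095 in diluted and 0.077 in standard-labelled libraries, against 0.108 and 0.126 over all named genes. Over the 41 genes, Pearson's r between arrays of one group ranged from 0.301 to 0.657 for MM, from 0.269 to 0.739 for JG, and from 0.988 to 0.996 in both cortex groups together. Over all probe sets, r ranged from 0.748 to 0.835 for MM, from 0.754 to 0.839 for JG, and was at least 0.989 in cortex. These correlations are across genes, which are not independent replicates.

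Genes of the surrounding pathways, from lists other than the 41, behaved as follows against diluted cortex. Of 26 further beta oxidation genes, 21 were apart and lower in JG cells and 22 in MM cells, beside 24.7% and 19.5% of all named genes. Among named genes above background in all 3 diluted libraries, these shares were 53.1% and 41.5%. Of the 26 genes, 24 to 25 were above background in each diluted library. Phyh (6.09 against 11.96), Crot (5.94 against 11.70) and Pecr (6.11 against 11.83), which act in peroxisomes, were below background in every JG cell. Their differences are therefore given as at least 18.7-fold, 15.7-fold and 17.2-fold. Cpt1c was apart and higher in both kinds of cell, but lay at the background level, above it in 1 of 5 JG cells, 2 of 4 MM cells and 1 of 3 diluted libraries. Of 25 genes of acyl-CoA synthesis and uptake, 16 were apart and lower in both kinds of cell. Another 3 (Acaca, Acacb and Acsl6) were apart and higher in JG cells, but Acaca and Acsl6 were below background on every JG and diluted array, and Acacb passed it on 1 of each. The fatty acid transporter Slc27a2 read 5.82 in JG cells, below background in each, and 13.19 in diluted cortex, at least 44.0-fold higher. All 5 ketone body genes measured were apart and lower in both. Of 16 further genes of branched chain and propionate breakdown, 12 were lower in JG and 8 in MM cells. The MM count lies near the 41.5% of named genes above background in all diluted libraries, and nothing is read from it. Of 14 regulators, 5 were lower in each, and in JG cells Ppard was apart and higher (7.68 against 6.35), near background in both. Nothing is read from the regulators' count beside the 24.7% and 19.5% of all named genes that were lower. Esrra, an estrogen-related receptor, read 7.53 in JG and 7.51 in MM cells, near background, against 9.87 in diluted cortex. In standard-labelled cortex it read 6.35, below both kinds of cell. The related Esrrb (7.31 in JG cells, 6.53 in diluted cortex) and Esrrg (6.90 and 5.97) went the other way, near or below background.

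The cortex libraries allow a test, of the labelling rather than of a cell type. Diluted and standard-labelled cortex were compared with limma over the 6 cortex arrays, with p-values adjusted by the Benjamini-Hochberg method over all 19165 probe sets tested. The labels do not say whether the libraries are of different animals; a p-value here reflects the spread of these libraries alone, which may be technical. Of the 41 oxidation genes, 26 were called higher in diluted cortex, beside 38.6% of all probe sets, and 9 lower, beside 36.8%. The median log2 fold change was 0.82, beside 0.005 over all probe sets. Centring each array on its median moved that overall median to 0.21 and the split of the 41 genes to 29 higher and 8 lower.

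**Figure D5:**
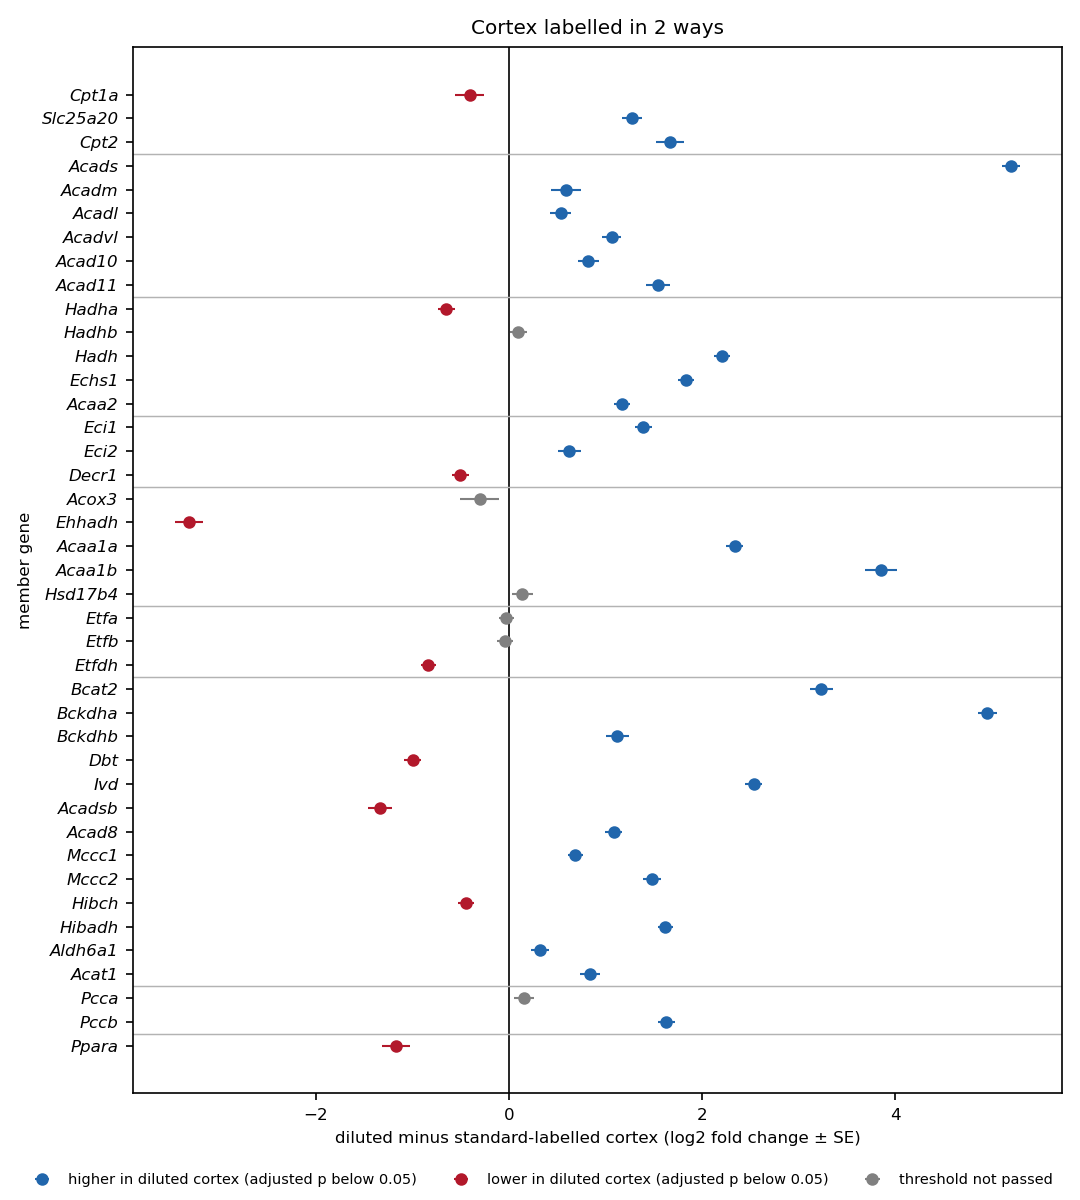
The log2 fold change of diluted over standard-labelled cortex (horizontal axis, with the standard error as bars, 3 libraries each) is shown for each of the 41 genes by role. Acads and Bckdha lie farthest to the right at 5.20 and 4.95, Ehhadh farthest to the left at -3.31, and 6 grey points did not pass the threshold.

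All 6 acyl-CoA dehydrogenases of fatty acids were called higher in diluted cortex, beside 38.6% of all probe sets tested. Acads read 6.80, 6.65 and 6.72 in standard-labelled cortex, barely above background, and its difference of 5.20 (SE 0.09, limma adjusted p 2.89e-08) was 36.8-fold. The other 5 differed by 0.53 to 1.54 log2 units. Of the matrix enzymes, Hadh (2.20), Echs1 (1.83) and Acaa2 (1.17) were higher, Hadha was lower (-0.65), and Hadhb differed by 0.10 (SE 0.09, limma adjusted p 0.336). Whether Hadha and Hadhb differed from each other was not tested.

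Peroxisomal genes held both extremes. Acaa1b was higher in diluted cortex by 3.85 log2 units (SE 0.16, limma adjusted p 2.98e-07) and Acaa1a by 2.34, while Ehhadh was lower with a difference of -3.31 (SE 0.14, limma adjusted p 3.01e-07). Of the electron transfer genes, Etfa (-0.03) and Etfb (-0.04) did not pass the threshold, and Etfdh was lower (-0.84). In the carnitine shuttle Slc25a20 (1.27) and Cpt2 (1.67) were higher. Cpt1a (-0.41, SE 0.15, limma adjusted p 0.0381) was called lower, and lost the call without diluted library B or C or standard-labelled library A or C, with adjusted p from 0.0872 to 0.112.

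Among the branched chain genes 10 of 13 were called higher and 3 lower, beside 38.6% and 36.8% of all probe sets tested. Nothing is read from the count of lower genes. Bckdha read 11.91, 11.81 and 11.82 in diluted and 7.05, 6.81 and 6.81 in standard-labelled cortex, a difference of 4.95 (SE 0.10, limma adjusted p 2.89e-08). Bcat2 (3.23) and Ivd (2.53) followed. The 3 lower genes were Acadsb, the dehydrogenase of isoleucine breakdown (-1.34), Dbt, the acyltransferase of the branched chain ketoacid dehydrogenase (-0.997), and Hibch, the hydrolase of valine breakdown (-0.45). The 2 subunits of the ketoacid decarboxylase, Bckdha and Bckdhb (1.12), were thus higher while Dbt of the same complex was lower. Aldh6a1 (0.32, limma adjusted p 0.0125) lost its call without diluted library C (adjusted p 0.0524). Pccb was higher (1.63), Pcca did not pass (0.15, limma adjusted p 0.206), and Ppara was lower (-1.17, limma adjusted p 0.000117).

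The labelling also bears on the comparison with cells. With standard-labelled cortex as the reference, the JG difference changed sign for Acads (0.86), Acaa1a (0.75), Bckdha (0.36) and Bcat2 (0.19). The MM difference changed sign for Acads (1.23), Bckdha (0.65), Acaa1a (0.20), Bcat2 (0.68) and Echs1 (0.66). Among the 5 JG cells, Acads and Bckdha were above background in 1 each, Bcat2 in 3 and Acaa1a in 4. The background level was also higher on MM and JG arrays than in standard-labelled cortex. These changes of sign are therefore not read as higher expression in the cells. Labelling and cell type differ together in that comparison and cannot be told apart. For Ehhadh the reference mattered the other way, with JG differences of -0.28 against diluted and -3.60 against standard-labelled cortex. Of pathway genes outside the 41, limma called 15 of 25 further beta oxidation genes higher and 1 lower, and 8 of 16 further branched chain and propionate genes higher and 5 lower. Over all probe sets tested the shares were 38.6% higher and 36.8% lower, so the branched chain counts are not read as a result about that list. Ppargc1a, a coactivator of Ppara, read 6.08 in diluted and 10.94 in standard-labelled cortex (-4.86, SE 0.10, limma adjusted p 2.89e-08), chosen here after its values were seen. It does not stand for the 14 regulators, of which limma called 7 higher, among them Esrra (3.52), and 3 lower. Beside the shares over all probe sets, nothing is read from these counts.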

How the data were processed

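Values were the log2 signals deposited by the authors for 35557 probe sets of 15 Affymetrix MoGene 1.0 ST arrays, with 0 missing. The submitters' processing notes name Affymetrix Expression Console. Version, summary algorithm, normalization and build are not given in the sources, so values were used as deposited. Names came from the platform annotation, and the gene IDs of all 41 genes equalled those of the RefSeq table of GRCm38.p6. Members and gene lists were chosen with earlier results of these data known. All 42 members could be named; other genes were named from 16 lists, by the size of their difference or as markers, some after their values were seen.

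Background was the 99th percentile of the receptor probe sets per array. A bound is the bright mean minus the mean, over the dim arrays, of the higher of that level and the own value. Cortex was tested with limma 3.58.1 (lmFit, eBayes) in R 4.3.3 on probe sets at or above the overall median signal in the brighter labelling, at an adjusted p of 0.05; the script was tested on simulated data. Python 3.11.15, numpy 2.4.6, pandas 2.3.3 and matplotlib 3.10.9 did the rest. Arrays have no count depth, so the number of arrays limits the precision. Alternatives covered scaling, filters, probe sets, background level, reference and left-out samples. Protein sequences were not used here.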

Additional observations from a re-analysis of the deposited data

Results flagged for a closer look

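The values examined were 84 groups: the 41 genes in the MM and the JG cells and the counts of genes above background. In 9 of the 84 a single cell lay far from the rest of its group, where independent values would give about 1 in 20. The groups come from the same cells and are not independent, so no excess over chance is read from this count. JG cell 7 was the highest for Eci1 (11.43), Acat1 (9.45) and Hadh (8.06). Acadl was highest in JG cell 8 (10.75) and in MM cell 14 (10.40), the only cells with this gene above background. Hsd17b4 was highest in MM cell 15 (10.49). Mccc1 was highest in MM cell 19 (6.31) and lowest in JG cell 5 (4.99), and Cpt2 was lowest in JG cell 6 (5.92), 3 values that lie below the background level of their arrays.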

How the results depend on the processing

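The JG median against diluted cortex, -3.95, was -4.46 with each array centred on its median, -3.12 with quantile normalization, -5.01 with centring on the receptors, -4.04 with group medians and -3.39 against standard-labelled cortex. Over the 40 members above background on every array of the higher group it was -4.04. These members passed through diluted cortex, where they are high, so that value supports nothing. The MM median, -3.46, was -3.83, -2.85 and -4.31 under the first 3 settings and -2.62 against standard-labelled cortex. With 1 cell or library left out the JG median ranged from -4.15 to -3.88. The median number of genes above background, 12 in MM and 4 in JG cells, was 20.5 and 11.0 with the 95th percentile of the receptors, 29 and 27 with the median of all probe sets, and 8.0 and 1.0 with the highest receptor; it ranged from 7.0 to 17.0 with 1 MM cell left out, and was 7.0 without MM cell 14 or 19. The MM minus JG median was 2.96 over genes above background in every cell of the higher group, but only 2 genes (Echs1 and Etfb) passed, both through the group where they are high, so it supports nothing. The count apart and higher ranged from 1 to 2 with 1 cell left out. Differences of genes apart in the main setting that changed sign are, for JG cells, Acaa1a under quantile normalization (0.32) and, with standard-labelled cortex, Acads (0.86), Acaa1a (0.75), Bckdha (0.36) and Bcat2 (0.19). For MM cells with that reference they are Acads (1.23), Bckdha (0.65) and Acaa1a (0.20); Bcat2 (0.68) and Echs1 (0.66), not apart, also changed sign, as did Ppara in JG cells (0.04) under several settings. No called labelling difference changed sign. Cpt1a lost its call with no filter (limma adjusted p 0.0582), with array centring (0.184) and with receptor centring (0.0631), and Aldh6a1 under quantile normalization (0.466). Array centring added calls for Hadhb, Hsd17b4 and Pcca, quantile normalization one for Etfb, and leaving out diluted library A one for Acox3. The causes were not tested. Whether the library letters pair the samples could not be settled with 3 libraries of each labelling. Deviations of libraries with the same letter correlated at 0.158, 0.154 and 0.036, and those with different letters from -0.18 to 0.054. Letters A and B each correlated best with their own letter, whereas diluted C correlated better with standard-labelled B (0.054). With the letter as a replicate block, 26 genes were higher and 9 lower, as without it, and 14484 probe sets were called beside 14449. Leaving out JG cells 4 and 5 together was chosen after seeing the data. The planned comparison of protein sequences was not run. Bounds rest on the background level of single cell arrays, which was higher than in cortex. The changes of sign against standard-labelled cortex meet the same limit.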
